A study of Caenorhabditis elegans with 6 samples.

Results

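The heterochronic and moulting timer regulators are 10 Caenorhabditis elegans genes that set when larval cells change fate and when the animal sheds its cuticle: lin-14, lin-28, hbl-1, lin-41, lin-29, lin-42, nhr-23, nhr-25, myrf-1 and blmp-1. They were found by RefSeq locus tag, and all 10 had a row among the 20894 rows of the expression table. RNA was sequenced from whole worms, labelled as adult animals. The wild type was the strain N2 and the mutant was bcf-1(ylf1), both growing on Escherichia coli OP50, the usual laboratory food bacterium. Each genotype had 3 libraries, which the design text describes as independently generated, and no other allele, treatment or age is given in the labels. bcf-1 encodes an intestinal protein that the series title describes as binding bacteria, and the labels do not say what the ylf1 allele changes. Values were read as FPKM, a unit that was inferred, in which fragments are divided by transcript length and by the size of the library. This allows an approximate comparison of levels between genes. Comparisons between libraries still depend on how the libraries are scaled, as given below.

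As background, cell fates of the worm's larval stages are set by a chain of regulators. LIN-14, LIN-28 and HBL-1 hold early larval fates, and small RNAs of the lin-4 and let-7 families switch them off in turn. LIN-41 then restrains LIN-29, the transcription factor that turns the larval skin into adult skin. A second set of factors runs the moulting cycle of the skin: the Period relative LIN-42, the nuclear receptors NHR-23 and NHR-25, the membrane-anchored factor MYRF-1 and the zinc-finger factor BLMP-1. Their transcripts are known to rise and fall once in each larval stage and this cycling is known to stop in adults.

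The libraries were compared before the genes. The targeted gene bcf-1 was at 374, 412 and 499 FPKM in N2 and at 63.7, 72.1 and 60.01 FPKM in the mutant. The column sums lay between 659249 and 687573, and the sequencing depth behind them is unknown. On the first principal component the genotypes separated (80.4% of the variance). On the second (8.79%) N2 replicate 1 stood apart, at 28.9 against -14.9 and -13.4 for replicates 2 and 3. The mutant libraries were also spread on it, with replicates 1, 2 and 3 at 2.92, -16.94 and 13.45. The label of adult animals was set beside 10 genes of the adult stage, a list compiled with earlier results of these data known. They were the 6 vitellogenins and the collagens col-7, col-19, col-62 and col-119. Their summed level was 3621 to 6295 FPKM in the N2 libraries and 28.0 to 70.3 FPKM in the mutant libraries, so markers that define the adult were far lower in the libraries labelled as mutant adults. They were not absent there: col-19 had a mean of 17.3 FPKM and vit-6 of 12.2 FPKM. Developmental stage was not measured otherwise, and a difference of stage and a difference of genotype cannot be told apart in these libraries.

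Of the 10 timing regulators, 6 rose in the mutant and 0 fell, against 34.6% of the 13576 tested genes called higher, 14.99% called lower and 49.6% called in either direction. A gene was called when its adjusted p in limma, a linear model fitted across all tested genes with Benjamini-Hochberg adjustment, was under 0.05. The 6 were nhr-23, myrf-1, lin-42, lin-29, blmp-1 and hbl-1, with means 3.62, 3.24, 2.95, 2.84, 1.94 and 1.85 times those of N2. For lin-14, lin-28, lin-41 and nhr-25 the adjusted p was between 0.111 and 0.877. The count of lower genes was also 0 at an unadjusted p under 0.05 in limma. All 10 log2 changes were above 0 as fitted, but 9 were after median-ratio scaling and without N2 replicate 2 or 3, and 8 after quantile normalisation. For lin-41 the mean FPKM was slightly lower in the mutant, at 0.987 times that of N2. Without N2 replicate 1, 7 of the 10 were called higher, but calls rose across all tested genes too, with 42.85% called higher. The values of the genotypes did not overlap in 8 of the 10 genes, all higher in the mutant, where 40.4% of tested genes were higher without overlap. Every one of the 10 passed the filter on low values (at least 1 FPKM in at least 3 libraries), and the lowest value of any of them in any library was 2.06 FPKM.

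Log2 changes below are mutant minus N2 on the scale log2(FPKM + 1), which understates the change of low genes. The median change over all tested genes was 0.24, so the change relative to that level is also given. Median change and calls depend on how libraries are scaled: with median-ratio scaling the median was 0.0017, and 22.6% of genes were called higher and 22.8% lower. The share called higher was 22.2% without mutant replicate 1 and 23.1% without mutant replicate 3. Under each of these settings, the same 6 timing regulators were called higher. After quantile normalisation, with 24.0% of genes called higher, 5 of them were, all but hbl-1. In whole animals, fewer cells of a type and less RNA per cell cannot be told apart.

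**Figure D1:**
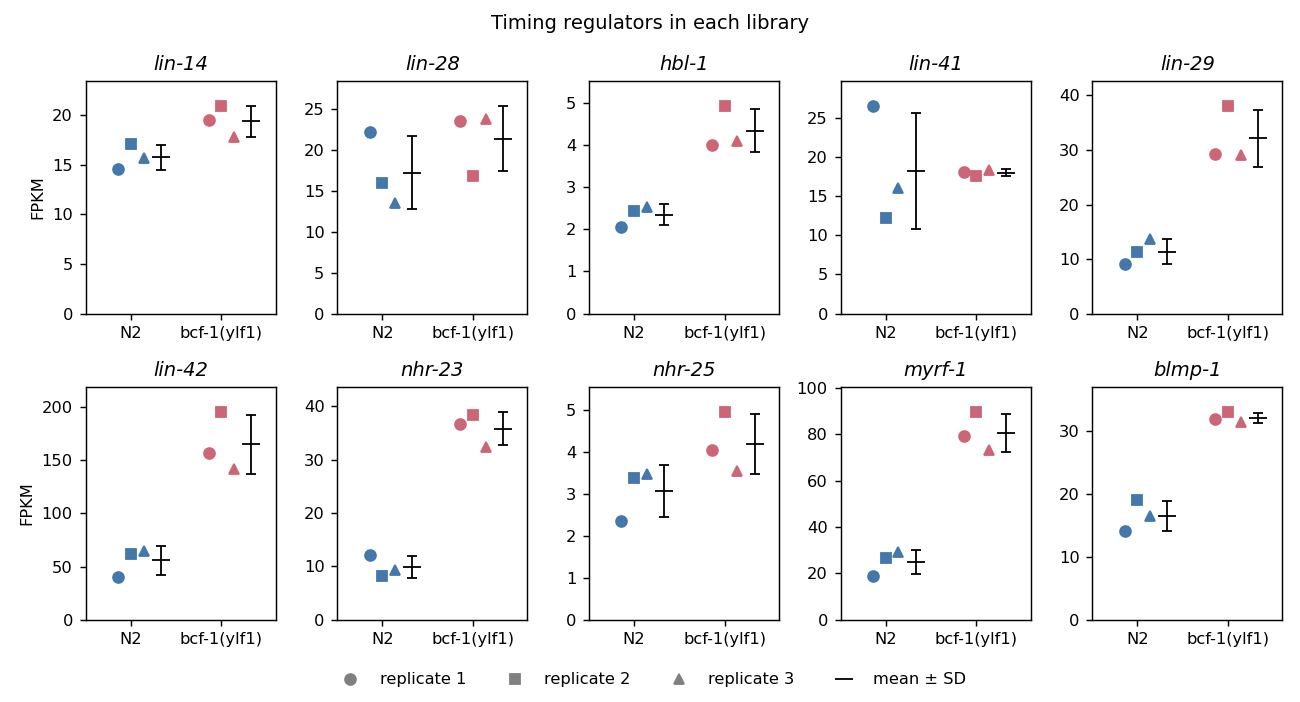
FPKM of the 10 timing regulators (1 panel each, vertical axis from 0) in the 3 N2 libraries (blue) and 3 bcf-1(ylf1) libraries (red), with the mean ± SD beside each group and the replicate shown by the symbol. The genotypes overlap in lin-28 and lin-41 and are apart in the other panels, and lin-42 reaches the highest level, at 195 FPKM in mutant replicate 2.

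Among the regulators of early larval fates, hbl-1 was the one that rose. lin-14 (T25C12.1; chromosome X, 11465560 to 11485871, WBcel235) encodes a transcription factor and is the classical target of the small RNA lin-4. Its level was 14.5, 17.05 and 15.7 FPKM in N2 and 19.4, 20.9 and 17.8 FPKM in the mutant. Every mutant library lay above every N2 library, by a small margin. The log2 change was 0.28 (SE 0.13, limma adjusted p = 0.111), with a 95% interval from -0.02 to 0.59, and 0.05 relative to all tested genes. That interval corresponds to a fold between 0.984 and 1.501.

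lin-28 (F02E9.2; chromosome I, 8407630 to 8410804) encodes an RNA-binding protein that blocks the maturation of let-7. It stood at 22.2, 15.9 and 13.5 FPKM in N2 and at 23.6, 16.8 and 23.9 FPKM in the mutant. The groups overlapped, with N2 replicate 1 near the higher mutant libraries and mutant replicate 2 near the other N2 libraries. The log2 change was 0.31 (SE 0.21, limma adjusted p = 0.242; 95% interval -0.16 to 0.78). Without N2 replicate 1 it was 0.50 with a limma adjusted p of 0.0473, the only alternative of 14 under which lin-28 was called. In that setting 42.85% of all tested genes were called higher.

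hbl-1 (F13D11.2; chromosome X, 5822142 to 5827755), a zinc-finger gene related to Drosophila hunchback, was one of the lowest of the 10. It measured 2.06, 2.44 and 2.52 FPKM in N2 and 4.01, 4.92 and 4.08 FPKM in the mutant, with no overlap. The mean went from 2.34 ± 0.250 to 4.34 ± 0.508 FPKM (SD, n = 3 each), 1.85 times as high. Its log2 change was 0.67 (SE 0.14, limma adjusted p = 0.00420), or 0.44 relative to all tested genes. After quantile normalisation the change was 0.32 with an adjusted p of 0.126, so the call was lost under that scaling, while it held after median-ratio scaling (0.47).

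lin-41 (C12C8.3; chromosome I, 9334800 to 9342496) encodes an RNA-binding protein of the TRIM family that is a target of let-7 in the skin and also acts in oocytes. N2 libraries held 26.5, 12.2 and 16.04 FPKM and mutant libraries 18.1, 17.5 and 18.4 FPKM. The N2 libraries spanned a 2.17-fold range and the mutant libraries a 1.05-fold range inside it. The log2 change was 0.05 (SE 0.24, limma adjusted p = 0.877; 95% interval -0.50 to 0.60), and its sign turned under both scalings and without N2 replicate 2 or 3. In N2 the order of lin-41 over the libraries was that of the summed level of 15 germline and oocyte genes, which was 1623, 716 and 1074 FPKM in replicates 1, 2 and 3 and 1071 to 1106 FPKM in the mutant. The summed level of the 10 adult stage genes had the same order in N2, at 6295, 3621 and 5491 FPKM. N2 replicate 1 was the highest N2 library for 48.7% of all tested genes. This order was thus not particular to the germline genes. The part of germline content in the values of lin-41 was not tested.

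lin-29, the regulator of the switch to adult skin, rose. lin-29 (W03C9.4; chromosome II, 11917642 to 11935343) stood at 9.02, 11.3 and 13.6 FPKM in N2 and at 29.2, 38.1 and 29.03 FPKM in the mutant. The lowest mutant library was far above the highest N2 library, and mutant replicate 2 was above the others. The mean went from 11.3 ± 2.30 to 32.1 ± 5.15 FPKM (SD, n = 3 each), a log2 change of 1.43 (SE 0.18, limma adjusted p = 0.000263) and 1.20 relative to all tested genes. The table has 1 row per gene, so the long and short forms of LIN-29 were not separated.

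The transcript of the cofactor that binds LIN-29 rose with it, while a known target of LIN-29 fell. mab-10, which encodes this cofactor of the NAB family, was at 8.88, 11.5 and 12.3 FPKM in N2 and 42.8, 51.8 and 40.9 FPKM in the mutant (log2 change 1.96, SE 0.16, limma adjusted p = 2.98e-05). The adult collagen gene col-19, which LIN-29 is known to activate and which was chosen after its values were seen, was at 923, 522 and 878 FPKM in N2 and 15.7, 24.4 and 11.8 FPKM in the mutant (log2 change -5.42, limma adjusted p = 3.68e-06). Higher lin-29 transcript and lower col-19 transcript thus stood side by side in all 3 mutant libraries. Within each library the ratio of lin-29 to lin-41 was 0.340, 0.931 and 0.848 in N2 and 1.61, 2.17 and 1.58 in the mutant. A single scaling factor per library cannot change this ratio, but quantile normalisation can. This pair was chosen after its values were seen, and the ratio is a description without a test.

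Of the 5 moulting clock genes, 4 rose, where 34.6% of all tested genes were called higher, and nhr-25 was not called. lin-42 (F47F6.1; chromosome II, 1233236 to 1252359), the worm relative of the circadian gene Period, was the most abundant of the 10 in both genotypes. It stood at 40.5, 62.1 and 64.8 FPKM in N2 and at 157, 195 and 142 FPKM in the mutant. Every mutant library exceeded every N2 library by more than the spread within either genotype. The mean went from 55.8 ± 13.3 to 165 ± 27.4 FPKM (SD, n = 3 each), a log2 change of 1.56 (SE 0.20, limma adjusted p = 0.000275) and 1.33 relative to all tested genes. lin-42 made up 24.9% to 35.1% of the summed FPKM of the 10 genes in N2 and 37.8% to 42.5% in the mutant.

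nhr-23 (C01H6.5; chromosome I, 7214745 to 7221299), a nuclear receptor of the ROR family needed for moulting, changed most among the 10. Its values were 12.2, 8.15 and 9.35 FPKM in N2 and 36.8, 38.3 and 32.4 FPKM in the mutant. The groups were far apart, and N2 replicate 1, the lowest N2 library for most of the other timing genes, was here the highest. Its mean went from 9.90 ± 2.09 to 35.8 ± 3.09 FPKM (SD, n = 3 each), a log2 change of 1.77 (SE 0.17, limma adjusted p = 5.57e-05) and 1.53 relative to all tested genes. In all, 2.66% of tested genes had a larger rise.

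nhr-25 (F11C1.6; chromosome X, 13008493 to 13013964), a nuclear receptor of the FTZ-F1 family that also acts in moulting, was low in both genotypes. It measured 2.36, 3.38 and 3.47 FPKM in N2 and 4.05, 4.95 and 3.54 FPKM in the mutant. The groups did not overlap, but mutant replicate 3 lay just above N2 replicate 3. The log2 change was 0.35 (SE 0.17, limma adjusted p = 0.121; 95% interval -0.04 to 0.74), and after quantile normalisation it was -0.0072. The ratio of nhr-23 to nhr-25 was 5.17, 2.41 and 2.69 in the N2 libraries and 9.08, 7.75 and 9.13 in the mutant libraries. This ratio, too, was chosen after its values were seen and was not tested.

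myrf-1 (F59B10.1; chromosome II, 10496987 to 10502541) encodes a transcription factor that is cut free from the membrane and is needed for moulting. It stood at 18.9, 26.6 and 29.1 FPKM in N2 and at 79.1, 89.6 and 73.2 FPKM in the mutant, with no overlap. The mean went from 24.9 ± 5.31 to 80.7 ± 8.29 FPKM (SD, n = 3 each), a log2 change of 1.67 (SE 0.17, limma adjusted p = 9.25e-05) and 1.44 relative to all tested genes. Its paralogue myrf-2, chosen after its values were seen, had means of 26.5 and 38.8 FPKM (log2 change 0.53, limma adjusted p = 0.0354). The ratio of myrf-1 to myrf-2 was 0.860 to 0.999 in N2 and 1.86 to 2.26 in the mutant, so the paralogues were near equal in N2 and unequal in the mutant. pan-1, which encodes a membrane protein that binds MYRF-1, rose from 44.02 ± 5.25 to 87.9 ± 6.76 FPKM (log2 change 0.99, limma adjusted p = 0.000356).

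blmp-1 (F25D7.3; chromosome I, 10409302 to 10414773), the worm relative of mammalian Blimp-1, rose with a small spread. N2 libraries held 14.1, 18.9 and 16.4 FPKM and mutant libraries 31.9, 33.0 and 31.3 FPKM. The mutant libraries lay within 1.05-fold of each other and well above N2. The mean went from 16.5 ± 2.41 to 32.1 ± 0.823 FPKM (SD, n = 3 each), a log2 change of 0.93 (SE 0.14, limma adjusted p = 0.000710) and 0.69 relative to all tested genes. dre-1, which encodes the F-box protein that marks BLMP-1 for breakdown, rose as well, from 25.97 ± 2.94 to 55.9 ± 5.86 FPKM (log2 change 1.08, limma adjusted p = 0.000300).

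**Figure D2:**
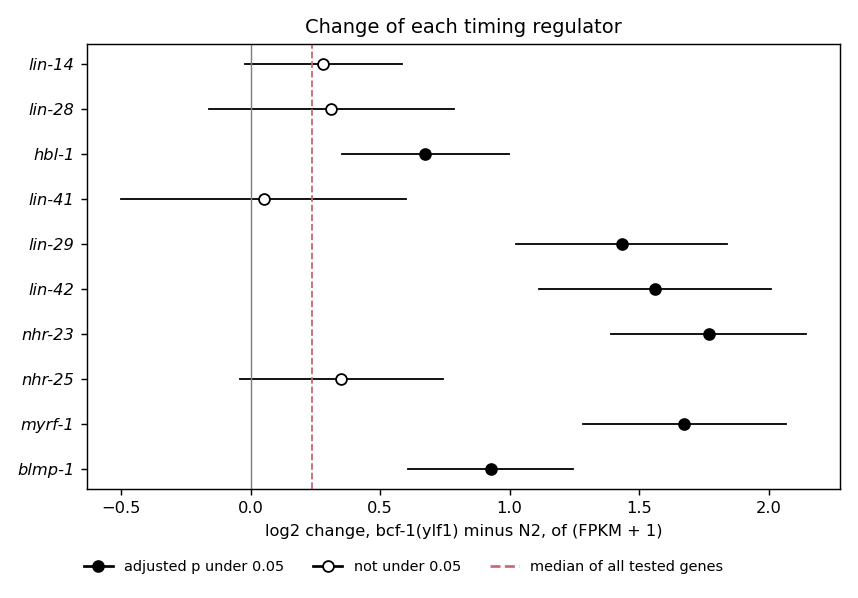
Log2 change of each timing regulator, bcf-1(ylf1) minus N2, on the log2(FPKM + 1) scale, with its 95% interval from limma; filled points have an adjusted p under 0.05 and the dashed line is the median of all tested genes, 0.24. nhr-23, myrf-1, lin-42 and lin-29 lie between 1.43 and 1.77, blmp-1 and hbl-1 at 0.93 and 0.67, and the intervals of the other 4 include 0.

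The order of levels differed between the genotypes in its middle part. In N2, lin-42 was first at a mean of 55.8 FPKM and was followed by myrf-1, lin-41, lin-28, blmp-1 and lin-14 (24.9 to 15.8 FPKM), which each overlapped the next in the list. lin-29 and nhr-23 came next at 11.3 and 9.90 FPKM and overlapped each other, and nhr-25 and hbl-1 were last at 3.07 and 2.34 FPKM, again overlapping. In the mutant lin-42 (165 FPKM) and myrf-1 (80.7 FPKM) stood apart from each other and from the rest. nhr-23, lin-29 and blmp-1 followed at 35.8, 32.1 and 32.1 FPKM with overlapping values, above lin-28 at 21.4 FPKM, lin-14 at 19.4 FPKM and lin-41, whose libraries lay between 17.5 and 18.4 FPKM. hbl-1 and nhr-25 remained lowest at 4.34 and 4.18 FPKM and overlapped. Thus nhr-23 and lin-29 were below lin-14, lin-28 and lin-41 by their means in N2 and above them in the mutant.

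**Figure D3:**
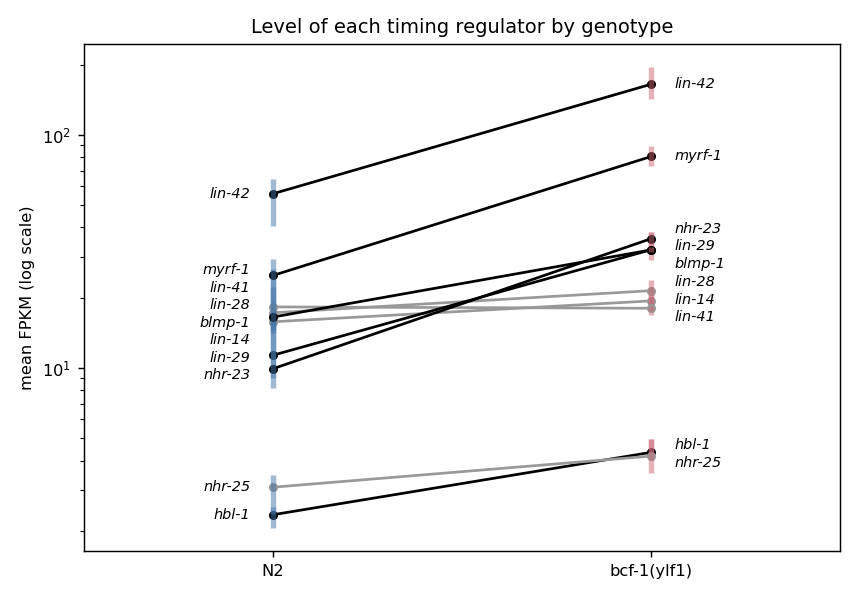
Mean FPKM of the 10 timing regulators (log axis) in N2 and bcf-1(ylf1), joined by a line that is black where the gene was called higher and grey where it was not; coloured bars span the lowest to the highest of 3 libraries. The lines of nhr-23 and lin-29 start at 9.90 and 11.3 FPKM and cross those of lin-14, lin-28 and lin-41, which end at 21.4 FPKM or lower.

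Libraries of the same genotype also differed from each other across the set. In the mutant, replicate 2 was the highest library for 8 of the 10 genes, all but lin-28 and lin-41, whereas it was the highest of the mutant libraries for 29.0% of all tested genes. Mutant replicate 3 was the lowest for 7 of the 10, against 23.1% of tested genes. In N2, replicate 1 was the lowest for 7 of the 10, against 26.7% of tested genes, and the highest for lin-28, lin-41 and nhr-23. The summed level of the 10 genes was 162, 178 and 185 FPKM in N2 and 403, 459 and 376 FPKM in the mutant. The spread within a genotype was largest for lin-41 in N2 (SD 40.6% of the mean) and smallest for lin-41 and blmp-1 in the mutant (2.45% and 2.57%).

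Other genes of the timing pathway moved in both directions. Of 18 tested partners of the timing regulators, 8 rose, 1 fell and 9 were not called, and the median of their log2 changes was 0.35 (0.11 above that of all tested genes). The share that rose, 44.4%, was near the 34.6% of all tested genes, so nothing is read from this count. daf-12, the steroid hormone receptor of the pathway, rose from 8.52 ± 0.844 to 16.8 ± 2.17 FPKM and lin-66 from 12.9 ± 0.887 to 24.2 ± 4.16 FPKM (limma adjusted p = 0.00127 and 0.00196). nhr-85, a nuclear receptor of the same timing pathway, rose from 4.03 to 8.29 FPKM in its mean, while kin-20, the casein kinase relative that works with LIN-42, had means of 35.8 and 33.4 FPKM (limma adjusted p = 0.00407 and 0.553). These last 2 genes were chosen after their values were seen. The ratio of lin-42 to kin-20 was 1.23 to 1.78 in N2 and 4.51 to 5.19 in the mutant. puf-9, a Pumilio-family gene chosen as the single fall, was at 37.9, 41.6 and 39.1 FPKM in N2 and at 24.0, 7.43 and 23.03 FPKM in the mutant, with mutant replicate 2 far below the others. It had a log2 change of -1.24 (limma adjusted p = 0.0206) and of -0.72 without mutant replicate 2. Without N2 replicate 2 its adjusted p was 0.0644. Leaving out N2 replicate 3, mutant replicate 1 or mutant replicate 3 gave 5 rises, as did both scalings. Leaving out N2 replicate 1 gave 11, where 42.85% of all tested genes were called higher. The small RNAs lin-4, let-7, mir-48, mir-84 and mir-241 were not analysed here.

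Most of the moulting regulators tested rose. Of 13, 11 rose (84.6%, against 34.6% of all tested genes) and 1 fell, and 8 rose under each of the other scalings. The median of their log2 changes was 0.83 (0.59 above that of all tested genes). grh-1, the Grainyhead transcription factor gene of the skin, rose from 7.78 ± 1.55 to 25.4 ± 1.90 FPKM, and mlt-4, which encodes an ankyrin-repeat protein needed for shedding the cuticle, from 2.27 ± 0.332 to 7.72 ± 0.861 FPKM (limma adjusted p = 9.79e-05 and 0.000112). acn-1, related to angiotensin-converting enzyme, rose from 60.2 ± 14.7 to 142 ± 8.83 FPKM (limma adjusted p = 0.000570). The single fall was of let-767, a steroid-modifying enzyme gene named for that reason after its values were seen, from 453 ± 66.7 to 312 ± 21.5 FPKM (limma adjusted p = 0.0103). It was not called after quantile normalisation.

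Moulting effectors, the secreted and membrane proteins that build or shed the cuticle, moved in both directions, mostly upwards. Of 24 tested, 15 rose (62.5%, against 34.6% of all tested genes), 3 fell (12.5%, against 14.99%) and 6 were not called. The median of their log2 changes was 1.25 (1.01 above that of all tested genes). fbn-1, a fibrillin-like matrix gene, was at 2.64, 2.87 and 3.30 FPKM in N2 and 25.3, 26.1 and 21.3 FPKM in the mutant (8.25 times the mean; limma adjusted p = 5.10e-06). sym-1, noah-2 and let-653, which encode proteins of the extracellular matrix of the skin and other epithelia, had means 6.75, 5.29 and 6.33 times those of N2. Falls were seen in ptr-23, nas-7 and mlt-7, named after their values were seen, with means 0.322, 0.434 and 0.658 times those of N2.

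Genes of the moulting lists were set beside the called timing regulators by the likeness of their profiles. Likeness was the root mean square difference, over the 6 libraries, between log2(FPKM + 1) values centred on each gene's own N2 mean, and 55 genes of the partner and moulting lists were compared. grh-1 was the most like myrf-1 (difference 0.162) and the most like lin-42 (0.208), and pan-1 was the most like blmp-1 (0.0622). The nearest to lin-29 was mlt-4 (0.219), the nearest to hbl-1 was mlt-2 (0.138) and the nearest to nhr-23 was mab-10 (0.315). With libraries of 2 genotypes, this measure mostly reflects the size of the difference between genotypes.

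Markers of stage and tissue moved with these changes. All 6 furrow collagen genes, which are made once in each larval stage, rose: dpy-2, dpy-3, dpy-7, dpy-8, dpy-9 and dpy-10 had means 6.31 to 7.88 times those of N2, and their summed level was 111 to 200.3 FPKM in N2 and 1090 to 1156 FPKM in the mutant. All 10 tested genes of seam and hypodermis, the cells of the skin in which most timing regulators act, rose as well, where 34.6% of all tested genes were called higher. Under each of the other scalings 7 of the 10 rose. The median log2 change of the 10 was 1.23. The summed level over the 13 with a row was 84.8 to 112 FPKM in N2 and 365 to 381 FPKM in the mutant. Among them wrt-10 and wrt-2, which encode Hedgehog-related proteins, had means 6.63 and 5.73 times those of N2, and aff-1 and eff-1, which encode cell fusion proteins, 4.83 and 3.76 times. All 10 adult stage genes fell, against 14.99% of all tested genes, with a median log2 change of -6.78. One of them, vit-4, was under 1 FPKM in every mutant library and passed the filter only through N2. col-7, vit-3 and vit-5 were under 1 FPKM in mutant replicate 3 and also needed N2 libraries to pass. The filter thus favoured the falls of these genes. Leaving out any N2 library left 9 called lower. The part of stage and of skin content in the changes of the timing regulators was not tested.

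Genes of the developing vulva and uterus, organs formed in late larval life, rose in 7 of 9 cases (77.8%, against 34.6% of all tested genes) and fell in 0. Their median log2 change was 0.70. lin-11, lin-39 and cog-1, which encode homeodomain factors, had means 4.28, 3.49 and 3.12 times those of N2. egl-17, a fibroblast growth factor gene, stood at 0.239, 0.338 and 0.671 FPKM in N2 and 2.38, 2.52 and 3.25 FPKM in the mutant. It was under 1 FPKM in every N2 library and passed the filter only through the mutant. The filter thus favoured the rise of egl-17, which is among the 7. After median-ratio scaling 4 of the 9 were called higher, against 22.6% of all tested genes. Of 15 germline and oocyte genes, 2 fell and 0 rose in limma, and their median log2 change was -0.29. The share that fell, 13.3%, was near the 14.99% of all tested genes, so nothing is read from this count. At an unadjusted p under 0.05 in limma, 3 of the 15 were lower and 2 higher. The genes that fell were nos-2, from 10.9 ± 6.96 to 3.97 ± 1.04 FPKM, and puf-5, from 52.6 to 24.4 FPKM in the mean (limma adjusted p = 0.0269 and 0.0434). Without N2 replicate 1, 5 of the 15 rose and 1 fell, where 42.85% of all tested genes were called higher and 14.01% lower. Without N2 replicate 2, 6 of the 15 fell, where 12.33% of all tested genes were called lower. No germline gene was called lower without mutant replicate 1 or 2, and 1 was without N2 replicate 3 or mutant replicate 3.

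Early embryonic genes gave little signal. Of 11, 4 passed the filter, and of these ref-1 fell, from 3.24 to 0.919 FPKM in the mean (limma adjusted p = 0.000504). Its mutant libraries held 0.919, 1.27 and 0.57 FPKM, so it needed N2 libraries to pass the filter, which favoured its fall. hlh-1, pal-1 and pha-4 were not called (limma adjusted p = 0.113, 0.434 and 0.0929). The summed level of the 11 was 28.5 to 37.3 FPKM in N2 and 29.05 to 38.2 FPKM in the mutant. Most of it came from pal-1 and pha-4, with means of 16.6 and 8.81 FPKM in N2 and 13.4 and 13.1 FPKM in the mutant. The genes that did not pass the filter were under 1 FPKM in every library, so the sum says little about them. tbx-37, tbx-38, hlh-27, med-1 and med-2 were listed at 0 in all N2 libraries, and end-1 in all mutant libraries.

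**Figure D4:**
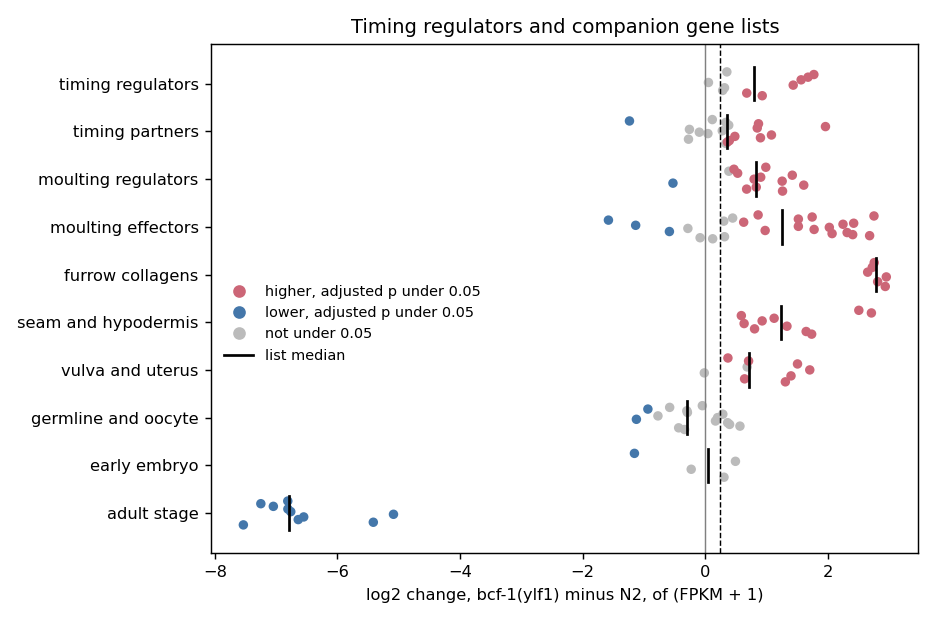
Log2 change, bcf-1(ylf1) minus N2, on the log2(FPKM + 1) scale for each tested gene of the timing regulators and of 9 companion lists (1 point per gene, coloured by its call; short black bars are list medians; the dashed line is the median of all tested genes, 0.24). Furrow collagens sit between 2.65 and 2.95 and adult stage genes between -7.53 and -5.09, with the timing regulators between 0.05 and 1.77.

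Each called timing regulator was also compared over 14 alternative settings. nhr-23 ran from 1.52 to 1.92, myrf-1 from 1.42 to 1.79, lin-42 from 1.30 to 1.68, lin-29 from 1.18 to 1.56 and blmp-1 from 0.68 to 1.03 on the log2 scale, with adjusted p-values in limma of at most 0.00828. hbl-1 ran from 0.32 to 0.86. The 4 others ran from 0.03 to 0.34 for lin-14, from 0.06 to 0.50 for lin-28, from -0.20 to 0.34 for lin-41 and from -0.0072 to 0.44 for nhr-25.

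**Figure D5:**
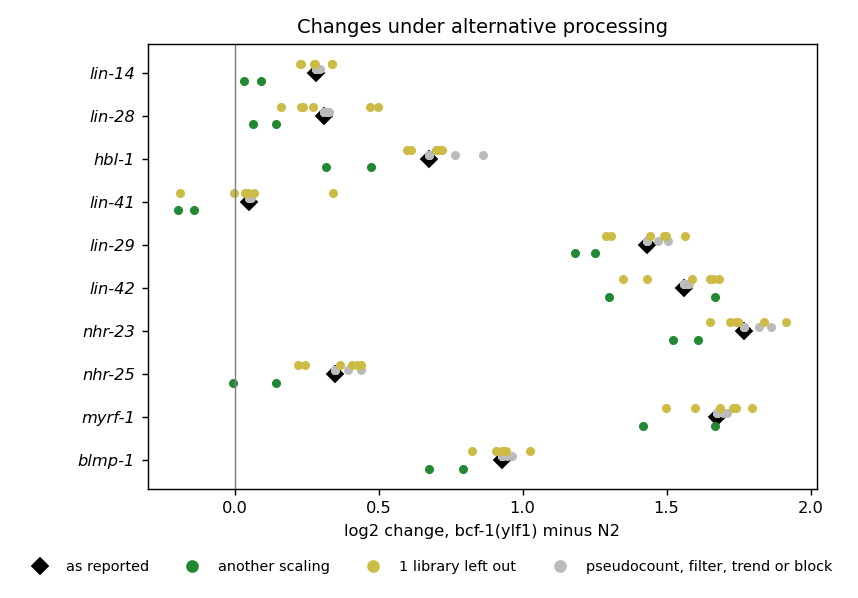
Log2 change of each timing regulator, bcf-1(ylf1) minus N2, as reported (black diamonds) and under 14 alternatives (green, another scaling; yellow, 1 library left out; grey, another pseudocount, filter, variance trend or a replicate block). nhr-23, myrf-1, lin-42, lin-29 and blmp-1 keep values of 0.68 or more under all of them, and lin-41 and nhr-25 fall on both sides of 0.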

How the data were processed

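Per the labels, total RNA of whole animals was extracted with TRIzol and made into libraries with a VAHTS Universal kit, and per the submitters' processing notes fastp and genome build WBcel235 were used. The sources used here do not say how reads were aligned, assigned to genes and strand, or counted. The single table deposited by the authors holds 1 column per library, taken as FPKM. The unit is not named and was inferred: values are fractional, fall with transcript length in genes above 0 in a single library (Spearman correlations -0.62 to -0.28, across genes), and do not sum to a fixed total. TPM with rows left out cannot be told apart from this. Values times length showed no step per read for most genes (21.2% to 41.3% within 10% of the commonest value), so read counts were not recovered, the depth is unknown and counting error is not stated. RefSeq locus tags (WBcel235) matched 19959 of 20894 rows, and positions are from the Ensembl annotation of the same build. By that annotation lin-28 and lin-29 share 16 and 2 exonic bases with a gene on the other strand, and lin-14 exons hold 2 small nucleolar RNA genes.

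A count-based test was planned for counts and limma 3.58.1 (R 4.3.3) for normalised values, so limma was used: log2(FPKM + 1) of the 13576 genes that reached 1 FPKM in 3 or more libraries, genotype as the only term, a variance trend, two-sided tests, Benjamini-Hochberg adjustment over all tested genes and a threshold of 0.05. Samples were grouped by their titles. Same-numbered libraries did not deviate together (correlations 0.0097, -0.0737 and -0.277), so numbers were not taken as pairs. In simulated data on these 13576 genes, 200 genes were changed in each round. Changes of 2, 1 and 0.5 log2 units were called there in 94.8%, 58.5% and 7.46% of cases. In the real data 49.6% of tested genes were called, which makes the adjustment less strict. The simulated shares therefore do not give the sensitivity of this comparison, and how often small changes were missed is unknown. The timing regulators, the companion lists and the rule for named genes (up to 4 genes per list with the smallest p, and every gene of lists of 6 or fewer) were chosen with earlier results of these data known. Alternatives were pseudocounts of 0.1 and 0.5, other filters, median-ratio and quantile scaling, no trend, a replicate block, and leaving out each library. Promoter motifs were not searched, because no sequence was used here.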

Additional observations from a re-analysis of the deposited data

How the results depend on the processing

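All 10 timing regulators kept the direction and call given above under pseudocounts of 0.1 and 0.5, both other filters, the fit without a trend and the replicate block. With median-ratio scaling 3065 genes were called higher and 3096 lower, and lin-41 changed to -0.20. With quantile normalisation lin-41 changed to -0.14 and nhr-25 to -0.0072, and hbl-1 at 0.32 was no longer called; the cause was not tested. Leaving out 1 library gave 2877 to 5720 genes higher, -0.19 to 0.34 for lin-41 (-0.19 without N2 replicate 2 and -0.0034 without N2 replicate 3) and 0.16 to 0.50 for lin-28, and 6 to 7 timing regulators called higher with 0 lower. Of the timing partners, 5 rose after median-ratio scaling, after quantile normalisation and with the replicate block, while 2 and 3 fell under the scalings, and leaving out a library gave 5 to 11 rises and 0 to 1 falls. Of the moulting regulators 0 fell after quantile normalisation. Of the germline genes, 2 rose after quantile normalisation and 1 with the replicate block, 0 fell without a filter and 4 after median-ratio scaling, and leaving out a library gave 0 to 5 rises and 0 to 6 falls. Of the vulva and uterus genes 4 rose after median-ratio scaling. The replicate block, with 4309 genes higher and 1863 lower, changed no call of a timing regulator; the numbers are not known to pair libraries. The depth is unknown. With 3 libraries per genotype, changes of 0.5 log2 units were mostly missed in simulated data, where far fewer genes changed than were called here.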
